A study of Mus musculus with 4 samples.

Results

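A brain nucleus was counted as dividing when it held UMIs of at least 3 of the genes Top2a, Mki67, Cenpf, Cenpe, Aspm and Kif11, with at least 4 UMIs over the 6 genes. A UMI is a molecular tag that counts 1 captured transcript. The members were thus chosen by the UMIs of these 6 genes. This rule found 141 dividing nuclei among 50595 kept nuclei of adult mouse brain, a share of 0.279% (95% Clopper-Pearson interval 0.235 to 0.329%). Of the 141, 74 lay in a neuroblast-like cluster, 32 in an oligodendrocyte precursor-like cluster and 35 in other clusters.

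The nuclei came from wild-type C57BL/6 mice aged 10 weeks, from brain freed of the cerebellum and frozen on dry ice. All of them were measured by single-nucleus RNA sequencing from the 3' end of transcripts in droplets, with the SeekOne DD kit. The 4 groups combined 2 factors, and each held 1 library. They were anaesthetised methanol (brain taken under isoflurane by craniotomy, nuclei fixed in 80% methanol at -20 °C for 30 min), post-mortem methanol (brain taken after cervical dislocation, nuclei fixed in the same way), anaesthetised unfixed and post-mortem unfixed. With 1 library a group, groups were not tested against each other, and harvest cannot be told apart from the animal or the piece of tissue (at most 50 mg). Libraries held 7649 to 17854 kept nuclei with a median of 3206 to 8380 UMIs each. Of the dividing barcodes, 6 also occurred in another library, 0 of them as dividing there.

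Most cells of the adult brain no longer divide. Textbook exceptions are the stem and progenitor cells beside the lateral ventricles and in the hippocampus, which give rise to migrating young neurons called neuroblasts, and the oligodendrocyte precursors that are scattered through the whole brain. A cell copies its DNA first, with helicases and polymerases that are made at that time. It then builds a spindle, condenses its chromosomes, separates them at their centromeres and splits, using a further set of genes that is switched on later and switched off after mitosis.

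The 6 genes of the rule all act late in this cycle. Top2a, on the minus strand of chromosome 11 at chr11:98992943-99024189 (build mm10), encodes the topoisomerase that untangles chromosomes. Mki67, on the minus strand at chr7:135689784-135716361, coats mitotic chromosomes. Cenpf, on the minus strand at chr1:189640606-189688086, and Cenpe, on the plus strand at chr3:135212537-135273611, are kinetochore proteins. Aspm, on the plus strand at chr1:139454772-139494091, and Kif11, on the plus strand at chr19:37376403-37421859, organise the spindle. All 6 are protein-coding.

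The promoters of 7 late-cycle genes, 4 of them rule genes, and 1 replication gene are given here because 2 short motifs recur in these 7. The first is the cell cycle homology region (CHR, TTTGAA or TTCGAA), to which the DREAM and MMB complexes bind, and the second is the CCAAT box, bound by NF-Y. Sequences are RefSeq, build GRCm38.p6, from 150 bases before to 50 bases after the annotated start, and for Top2a from 250 bases before it. CHR, CCAAT and E2F-type motifs (TTCGCGC or TTGGCGC), searched on both strands, are in capitals, a reverse match as its reverse complement.
Top2a (chr11:99024140-99024439, minus strand): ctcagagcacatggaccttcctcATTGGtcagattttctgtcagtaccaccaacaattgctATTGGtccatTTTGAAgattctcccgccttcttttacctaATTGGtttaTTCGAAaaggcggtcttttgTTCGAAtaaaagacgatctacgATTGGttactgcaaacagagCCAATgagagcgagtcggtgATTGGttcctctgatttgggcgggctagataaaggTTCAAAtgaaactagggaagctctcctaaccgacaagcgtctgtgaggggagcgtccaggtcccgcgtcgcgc
Kif11 (chr19:37376232-37376431, plus strand): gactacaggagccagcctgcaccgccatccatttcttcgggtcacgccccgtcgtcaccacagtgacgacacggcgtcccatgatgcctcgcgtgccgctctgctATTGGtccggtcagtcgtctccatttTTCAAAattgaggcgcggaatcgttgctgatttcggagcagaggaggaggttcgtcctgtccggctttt
Aspm (chr1:139454623-139454822, plus strand): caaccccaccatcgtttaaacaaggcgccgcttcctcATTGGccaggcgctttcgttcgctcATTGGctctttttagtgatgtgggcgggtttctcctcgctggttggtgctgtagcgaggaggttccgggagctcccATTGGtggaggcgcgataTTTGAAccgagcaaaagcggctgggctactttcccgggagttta
Cenpf (chr1:189688037-189688236, minus strand): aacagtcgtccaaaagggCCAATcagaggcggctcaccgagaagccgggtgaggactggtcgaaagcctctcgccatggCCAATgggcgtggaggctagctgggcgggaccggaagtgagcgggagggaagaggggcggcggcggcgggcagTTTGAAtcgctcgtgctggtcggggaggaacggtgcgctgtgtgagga
Kif23 (chr9:61946750-61946949, minus strand): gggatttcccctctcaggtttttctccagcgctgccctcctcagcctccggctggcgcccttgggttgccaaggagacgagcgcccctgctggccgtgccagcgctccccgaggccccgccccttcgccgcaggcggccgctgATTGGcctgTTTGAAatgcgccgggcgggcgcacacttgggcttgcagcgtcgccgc
Cenpa (chr5:30666736-30666935, plus strand): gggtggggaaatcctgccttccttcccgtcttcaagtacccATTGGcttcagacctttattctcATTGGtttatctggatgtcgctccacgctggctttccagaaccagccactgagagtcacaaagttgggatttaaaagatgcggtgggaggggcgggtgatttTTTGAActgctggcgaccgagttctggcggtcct
Prc1 (chr7:80294301-80294500, plus strand): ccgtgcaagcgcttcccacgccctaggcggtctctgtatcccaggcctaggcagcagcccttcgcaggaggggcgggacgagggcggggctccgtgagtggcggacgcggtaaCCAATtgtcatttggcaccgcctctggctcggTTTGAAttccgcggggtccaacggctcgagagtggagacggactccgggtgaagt
Mcm6 (chr1:128359656-128359855, minus strand): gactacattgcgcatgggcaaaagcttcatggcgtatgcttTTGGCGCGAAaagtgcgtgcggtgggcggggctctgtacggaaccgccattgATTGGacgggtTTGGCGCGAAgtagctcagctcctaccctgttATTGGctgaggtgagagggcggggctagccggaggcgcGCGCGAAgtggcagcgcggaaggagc

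Cenpf, Kif23, Aspm, Cenpa and Prc1 each hold a forward CHR within 17 bases of the start, at 3, 3, 7, 17 and -5 (position 1 is the first transcribed base). Kif11 holds a reverse one at -19. Top2a holds 4 CHR matches, 2 of them TTCGAA, which reads the same on both strands, and 6 CCAAT boxes. Mcm6, a subunit of the replicative helicase, holds no CHR in its window and 5 E2F-type matches at 3 places. Forward and reverse matches overlap at -109 and -106 and at -46 and -43, and a reverse match stands alone at 25. Within 50 bases of the start, a CHR was found in 60.6% of 66 promoters of the 4 mitotic gene lists used below, in 5.88% of 34 promoters of the DNA replication list and in 5.31% of all 32851 promoters. Among the 6 rule genes 4 had a CHR there, and these are the 4 printed. The promoters of Mki67 and Cenpe, which are not printed, had none there. An E2F-type motif lay in 12.1% of the mitotic, 35.3% of the replication and 3.89% of all promoters over the whole 300 bases. These matches describe the letters in the window and no binding was measured.

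The rule genes were seen in few nuclei outside the set. Top2a had a UMI in 95.7% of dividing nuclei, against 6.16% of other neuroblast-like nuclei, 0.888% of other precursor-like nuclei and 0.120% of a cluster with oligodendrocyte markers, which should lack it. Mki67 and Cenpf had a UMI in 0.120% and 0.0516% of that cluster. The median depths were 2568 UMIs in dividing nuclei, 1165.5 in other neuroblast-like, 2471.5 in other precursor-like and 1139 in the oligodendrocyte-marker nuclei. Mki67 had a UMI in 72.3% and Cenpf in 74.5% of dividing nuclei. These shares follow from the rule and are a description. Since the rule counts UMIs, a deeper nucleus meets it more easily.

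The threshold ran through a thinly filled range. At the inner edge, 16 nuclei had exactly 3 genes and 4 UMIs, and 38 of the 141 would have dropped out with 1 UMI fewer. Just outside it, 14 nuclei had 3 genes with 3 UMIs, and 19 had 2 genes with 4 or more UMIs. Of those 19, 9 lay in the neuroblast-like and 4 in the precursor-like cluster.

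The neuroblast-like cluster held 772 nuclei and was named from 5 of 10 markers that were raised in it, with Draxin, a guidance protein of young neurons, among its leading genes. Its other leading genes included Lockd, Neil3, Ticrr, Top2a and Esco2, which belong to the cell cycle, although the cycle lists were left out of the clustering. The precursor-like cluster held 1046 nuclei with 10 of 10 markers, led by Pdgfra, Neu4 and Cspg4. Dividing nuclei made up 9.59% of the neuroblast-like cluster (7.60 to 11.9%), 3.06% of the precursor-like cluster (2.10 to 4.29%) and 0.0718% of all other clusters (interval up to 0.0998%).

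As a group, the 35 dividing nuclei of other clusters were deeper. Their median was 18657 UMIs, against 2001 in dividing neuroblast-like and 3059.5 in dividing precursor-like nuclei, and 22 of the 35 were called doublets by Scrublet. Depth was uneven among them. The 9 in the anaesthetised unfixed library ran from 1256 to 11414 UMIs, with a median of 3216. Of the 18 dividing barcodes with over 20000 UMIs, 16 were among the 35, 2 were precursor-like and 0 were neuroblast-like. The deepest, in the post-mortem methanol library, held 735644 UMIs. Those 18 barcodes carried 89.0% of all UMIs of dividing nuclei, so sums over the whole set are mostly sums over them. Whether such a barcode is 1 dividing nucleus or several nuclei in 1 droplet was not tested.

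**Figure D1:**
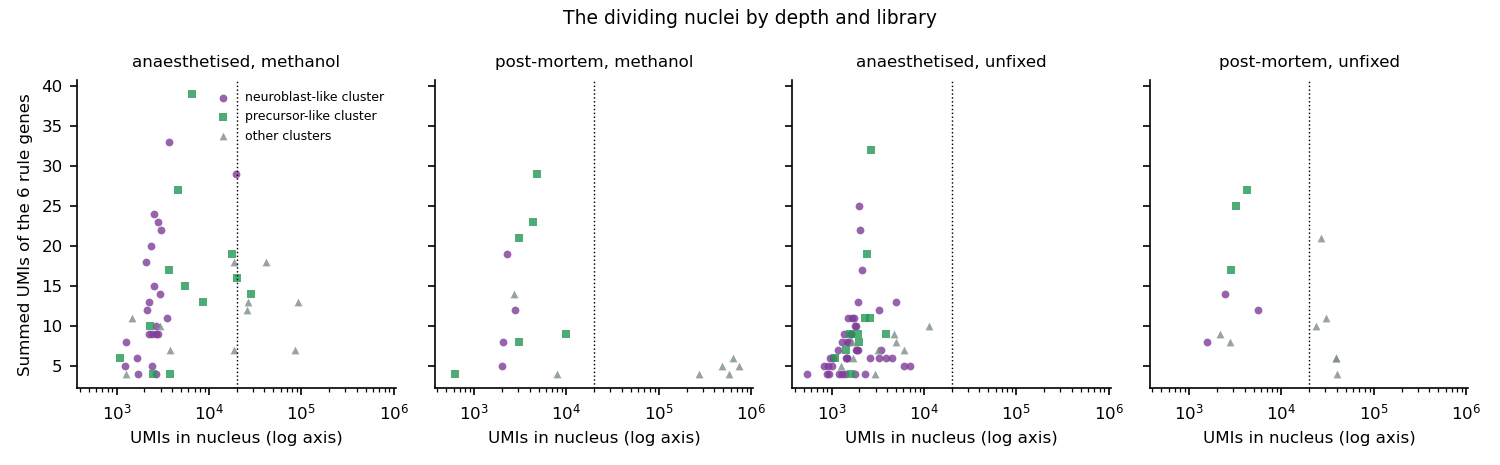
Each point is a dividing nucleus, with its UMIs on a log axis and the summed UMIs of the 6 rule genes, in 4 panels by library; colour and shape give the cluster and the dotted line marks 20000 UMIs. Dividing neuroblast-like nuclei lie left of the line in every library, and 5 post-mortem methanol barcodes of other clusters lie far to the right.

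Dividing nuclei were a larger share after harvest under anaesthesia than post-mortem. The anaesthetised methanol library held 46 of 7649 (0.601%, 0.441 to 0.801%) and the post-mortem methanol library 17 of 10792 (0.158%, 0.0918 to 0.252%). The anaesthetised unfixed library held 64 of 17854 (0.358%, 0.276 to 0.458%) and the post-mortem unfixed library 14 of 14300 (0.0979%, 0.0535 to 0.164%). The anaesthetised over post-mortem ratio was 3.82 (95% interval 2.15 to 7.10) among methanol-fixed and 3.66 (2.03 to 7.07) among unfixed nuclei. The methanol over unfixed ratio was 1.68 (1.12 to 2.49) under anaesthesia and 1.61 (0.746 to 3.53) post-mortem. All intervals cover counting error only.

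The depth of the libraries bears on these shares. When every nucleus was thinned to 2000 UMIs and shallower ones were left out, the shares were 0.340% in anaesthetised methanol, 0.0943% in post-mortem methanol, 0.0928% in anaesthetised unfixed and 0.0683% in post-mortem unfixed nuclei. That step left out 7, 1, 41 and 1 dividing nuclei of these libraries. In the thinned set 21, 8, 11 and 7 nuclei were dividing. The anaesthetised over post-mortem ratio was then 3.61 among methanol-fixed and 1.36 among unfixed nuclei, and the methanol over unfixed ratio under anaesthesia was 3.67. With doublet calls removed the post-mortem unfixed share was 0.0481%, and the anaesthetised over post-mortem ratio among unfixed nuclei was 7.29. Without barcodes over 20000 UMIs the post-mortem shares were 0.114% in methanol and 0.0562% in unfixed nuclei. The anaesthetised over post-mortem ratio was then 4.93 among methanol-fixed and 6.39 among unfixed nuclei.

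The size of the neuroblast-like cluster moved with harvest. It held 2.81% of anaesthetised methanol nuclei and 0.287% of post-mortem methanol nuclei, a ratio of 9.79 (6.69 to 14.8). Among unfixed nuclei it held 2.67% under anaesthesia and 0.343% post-mortem, a ratio of 7.80 (5.80 to 10.7). Cell cycle genes lead this cluster, so its size is not independent of division. Within it, the dividing share was 10.7% in anaesthetised methanol, 12.9% in post-mortem methanol, 9.22% in anaesthetised unfixed and 6.12% in post-mortem unfixed nuclei. Their intervals overlap, and run from 3.63 to 29.8% for the 4 dividing of 31 post-mortem methanol nuclei and from 1.28 to 16.9% for the 3 of 49 post-mortem unfixed nuclei. The dividing share of the precursor-like cluster was 6.03%, 2.68%, 2.78% and 1.32% in the same 4 libraries, with 12, 6, 11 and 3 dividing nuclei.

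**Figure D2:**
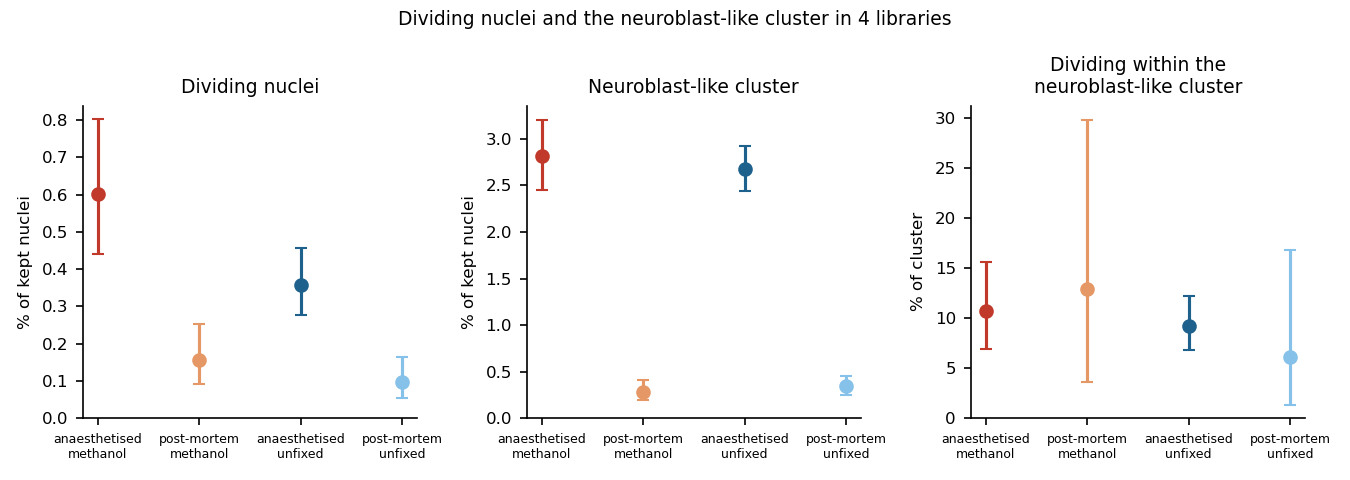
Share of dividing nuclei among kept nuclei (left), of the neuroblast-like cluster among kept nuclei (middle) and of dividing nuclei within that cluster (right), in percent, by library; bars are 95% Clopper-Pearson intervals. Both anaesthetised libraries are higher in the left and middle panels, and the intervals overlap in the right panel.

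The neuroblast-like share of the dividing set was lower in both post-mortem libraries, on few nuclei. It was 50.0% (34.9 to 65.1%) in anaesthetised methanol and 23.5% (6.81 to 49.9%, 4 of 17) in post-mortem methanol, where the intervals overlap. It was 68.8% (55.9 to 79.8%) in anaesthetised unfixed and 21.4% (4.66 to 50.8%, 3 of 14) in post-mortem unfixed. Without barcodes over 20000 UMIs it was 59.0% and 33.3% in the methanol pair, and 68.8% and 37.5% in the unfixed pair. In the post-mortem unfixed library 8 of 14 dividing nuclei were called doublets. In the anaesthetised unfixed library this was 11 of 64.

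To ask which other genes differed in dividing nuclei, UMIs were summed per library over dividing and over all other nuclei and compared with edgeR's quasi-likelihood test, with library as a block. The 6 rule genes were left out. Of 18378 genes tested, 330 were higher (1.8% of those tested) and 23 lower (0.125%) at an adjusted p under 0.05. Among genes with a mean of at least 50 CPM in dividing nuclei, Kif18b, a kinesin that shortens microtubules, had the largest change, at a log2 fold change of 8.24 ± 0.79 (SE). Lockd, a long noncoding RNA beside Cdkn1b, followed at 7.88 ± 0.32, and then Neil3, a DNA glycosylase, at 7.75 ± 0.44. Kif18b had 44.2 CPM (UMIs scaled to a common total) in anaesthetised methanol, 2.18 in post-mortem methanol, 177 in anaesthetised unfixed and 22.4 in post-mortem unfixed dividing nuclei, against 0.0537 to 0.138 CPM in other nuclei. Among the lower genes, Sst, the somatostatin of interneurons, stood at -1.72 ± 0.31, lower in 3 of 4 libraries, with an adjusted p of 0.23 once doublet calls were removed. Without the post-mortem methanol library 594 genes were higher and 379 lower, and without the anaesthetised methanol library 204 were higher and 11 lower. Without the barcodes over 20000 UMIs, a comparison added after seeing the data, 1009 genes were higher and 1875 lower.

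That contrast also compares neuroblasts and precursors with mature cells. A second one therefore compared dividing with other nuclei inside the neuroblast-like and inside the precursor-like cluster, with each cluster of each library as a block. It was chosen after the data were seen and rests on 8 pairs of sums from 4 libraries. Both clusters of a library share that library, so p-values may be too small. Of 12143 genes with at least 30 UMIs, 290 were higher (2.39%) and 722 lower (5.95%) in dividing nuclei. The median of all tested genes was -0.41 on the log2 scale, and -0.19 with median-of-ratios size factors, which called 369 higher and 398 lower. DESeq2 called 297 higher and 280 lower. Values below are read against that shift. The count of higher genes was 154 without the anaesthetised methanol and 153 without the anaesthetised unfixed library. That of lower genes was 379, 275 and 413 without post-mortem methanol, anaesthetised unfixed and post-mortem unfixed. Of the 290 genes, 198 were also among the 330 of the first comparison. Of the 290, 116 belonged to the cell cycle lists, and 0 of the 722 lower genes did. A gene can pass the UMI filter through the dividing sums alone, so the counts per list below describe the lists. The same holds for the expression filter of the first comparison. Fold changes and p-values of genes near 0 in other nuclei are therefore descriptions in both comparisons. The rule itself selects late-cycle genes, so calls of mitotic genes are descriptions too.

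Kinases and cyclins of mitosis were higher. Of 18 listed, 12 had enough UMIs, 11 were higher and 0 lower, with a median log2 fold change of 4.13. Cdk1, the kinase that drives entry into mitosis, was higher by 5.58 ± 0.53. Its partner cyclin Ccnb2 was higher by 4.38 ± 0.45, Ttk, a spindle checkpoint kinase, by 4.91 ± 0.43, and Cdc25c, the phosphatase that activates Cdk1, by 5.16 ± 0.47. The remaining member was Cit, citron kinase, at 0.02 ± 0.33, which had a mean of 320 CPM in dividing and 227 CPM in other sums.

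Spindle genes moved together. Of 24 kinesins and spindle proteins 23 were higher, with a median of 4.55. Kif23 and Prc1, partners in the central spindle, were higher by 5.76 ± 0.40 and 5.52 ± 0.39. In dividing neuroblast-like nuclei, Kif23 had 530 CPM in anaesthetised methanol, 549 in post-mortem methanol, 396 in anaesthetised unfixed and 524 in post-mortem unfixed nuclei. Other neuroblast-like nuclei had 0 to 23.3 CPM, so the groups did not overlap. Dividing precursor-like nuclei had 218 CPM in anaesthetised methanol, 622 in post-mortem methanol, 424 in anaesthetised unfixed and 684 in post-mortem unfixed nuclei, against 0 to 3.07 CPM in other precursor-like nuclei. Numa1, which gathers microtubules at spindle poles and serves the nucleus of resting cells too, stood at 0.09 ± 0.39.

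Centromere proteins behaved alike. Of 21 listed, 20 were tested and 20 were higher (median 3.96). Cenpa, the histone that marks centromeres, was higher by 6.32 ± 0.41. Its level in dividing neuroblast-like nuclei was 489 CPM in anaesthetised methanol, 658 in post-mortem methanol, 396 in anaesthetised unfixed and 209 in post-mortem unfixed nuclei. Dividing precursor-like nuclei had 284, 777, 1271 and 1074 CPM in those libraries, and other nuclei of both clusters had 0 to 19.3 CPM. Hjurp, the chaperone that places Cenpa, was higher by 2.92 ± 0.33 and Knl1, a kinetochore scaffold, by 4.92 ± 0.38.

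Cytokinesis genes were higher in 9 of 9 tested members of 10 listed (median 4.70). Cep55, which organises the final cut between daughter cells, was higher by 6.77 ± 0.45. It had 367, 329, 154 and 314 CPM in dividing neuroblast-like nuclei of anaesthetised methanol, post-mortem methanol, anaesthetised unfixed and post-mortem unfixed, against 0 to 8.31 CPM in other neuroblast-like nuclei. Anln, an actin ring scaffold, was higher by 4.48 ± 0.39 and Diaph3, a formin, by 3.07 ± 0.34. Pif1, a DNA helicase outside the lists, had 47 UMIs in dividing and 0 in other nuclei of both clusters, at least 235-fold higher with a floor of 3 counts over the other nuclei.

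Condensin and cohesin genes were mixed. Of 15 listed, 14 were tested, 9 higher and 0 lower (median 1.74). The condensin subunits Smc4 and Smc2 were higher by 3.68 ± 0.36 and 2.70 ± 0.34. Ncapd3 was higher by 1.04 ± 0.33, with an adjusted p of 0.23 without the anaesthetised methanol library and 0.17 without the anaesthetised unfixed one. The cohesin subunits Smc3, Stag1 and Stag2, which also hold chromosome loops in resting cells, stood at -0.20 ± 0.36, 0.15 ± 0.33 and 0.05 ± 0.35. They did not pass the test, though their mean CPM was higher in dividing sums. Stag1 had 863 against 469 CPM (higher in 8 of 8 pairs), Stag2 177 against 111 CPM (7 of 8) and Smc3 206 against 126 CPM (5 of 8). Rad21, also of cohesin and picked after its value was seen, was higher by 1.36 ± 0.39. Of 14 factors of the anaphase promoting complex, which marks mitotic proteins for destruction, 12 were tested and 4 were higher. Ube2c, its ubiquitin-conjugating enzyme, was higher by 6.45 ± 0.58. It had at most 2.30 CPM in other nuclei and passed the filter through the dividing sums alone. Fzr1, an activator, was higher by 1.76 ± 0.45, with an adjusted p of 0.12 without the anaesthetised methanol library. The core subunits Anapc1, Anapc4 and Anapc5 stood at -0.16 ± 0.41, -0.55 ± 0.40 and -0.38 ± 0.36.

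**Figure D3:**
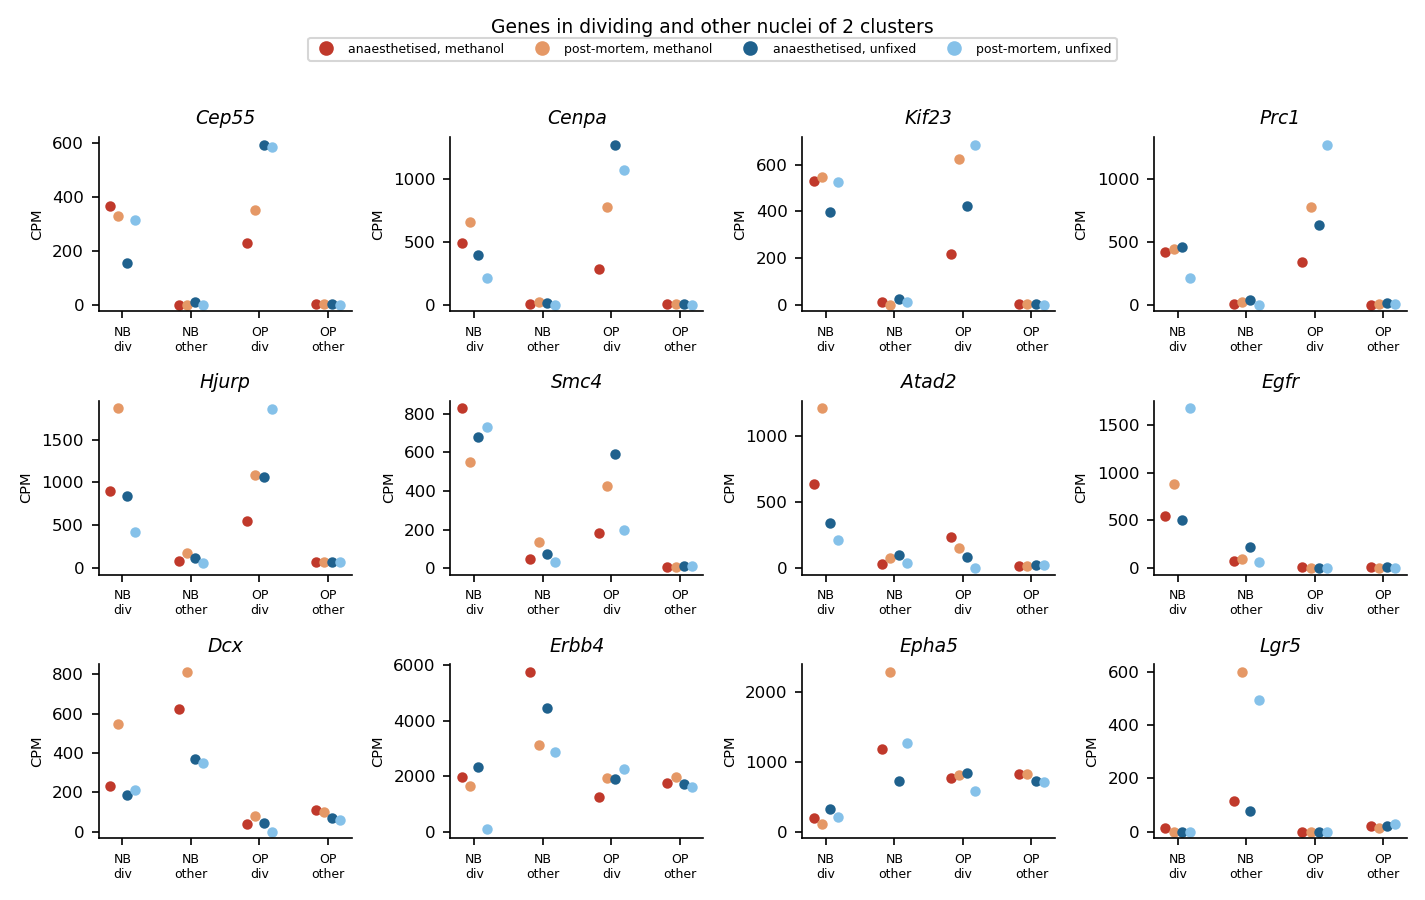
CPM of 12 genes in summed dividing (div) and other nuclei of the neuroblast-like (NB) and precursor-like (OP) clusters, 1 point a library, axes from 0. Cep55, Cenpa, Kif23 and Prc1 are near 0 in other nuclei of both clusters, while Egfr is high only among neuroblast-like sums and Lgr5 is at 0 to 13.6 CPM in dividing ones.

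Genes of DNA replication differed less. Of 36 listed, 24 were tested and 8 were higher (median 0.89), among them Rrm2, a ribonucleotide reductase subunit, at 2.67 ± 0.52, Pole, a polymerase, at 2.11 ± 0.52 and Lig1, a ligase, at 1.35 ± 0.38. Pola1, the polymerase that primes each strand, stood at 0.37 ± 0.36 and Mcm6 at 0.80 ± 0.52. Rrm2, Pole and Mcm6 were picked after their values were seen. Without the anaesthetised methanol library 0 of 18 tested members were higher. Genes of replication stress and repair were higher in 16 of 19 tested members of 21 (median 2.19). Atad2, a chromatin ATPase, was higher by 2.55 ± 0.36, Topbp1, a checkpoint activator, by 2.13 ± 0.39 and Brca2, a recombination mediator, by 1.56 ± 0.40. Of 20 chromatin copying genes 13 were tested and 8 were higher, including Lmnb1 (2.23 ± 0.34) and Ezh2 (1.39 ± 0.33).

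Of 18 regulators of the E2F and DREAM family, which switch cycle genes on and off, 15 were tested and 8 were higher, with E2f7 at 3.62 ± 0.47 and E2f8 at 2.81 ± 0.58, both repressors that close the replication programme. Rb1, Rbl2 and Tfdp2 stood at 0.01 ± 0.35, -0.01 ± 0.43 and -0.07 ± 0.35. Among 8 cyclins and kinases of the first gap phase 7 were tested and 1 was higher, Cdk6 at 1.61 ± 0.40, whose adjusted p was 0.13 without the anaesthetised methanol library. Ccnd2, a D-type cyclin, had 1209 CPM in anaesthetised methanol, 768 in post-mortem methanol, 847 in anaesthetised unfixed and 419 in post-mortem unfixed dividing neuroblast-like nuclei, against 193 to 356 CPM in other neuroblast-like nuclei. It stood at 0.97 ± 0.37 with an adjusted p of 0.083 in edgeR. Of 7 inhibitors of these kinases 2 could be tested and 0 were called.

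In edgeR no neuroblast or precursor marker was called higher (DESeq2 called 1 neuroblast marker higher), and some genes of mature or migrating neurons were lower. Of 10 neuroblast markers 0 were higher and 1 lower, Dcx, a microtubule protein of migrating neurons, at -1.55 ± 0.39 (adjusted p = 0.0021). Dcx had 231, 549, 187 and 209 CPM in dividing neuroblast-like nuclei of anaesthetised methanol, post-mortem methanol, anaesthetised unfixed and post-mortem unfixed, against 625, 811, 371 and 346 CPM in other neuroblast-like nuclei of those libraries. Within each library it was lower in dividing nuclei, though the groups overlap between libraries. Dlx1, Sox11 and Igfbpl1 stood at 0.57 ± 0.42, 0.46 ± 0.39 and 0.00 ± 0.30. Of 10 precursor markers 0 were higher and 2 lower, Pcdh15 at -1.73 ± 0.38 and C1ql1 at -1.92 ± 0.65. Pcdh15 had 27.2, 219, 352 and 0 CPM in dividing neuroblast-like nuclei of anaesthetised methanol, post-mortem methanol, anaesthetised unfixed and post-mortem unfixed, against 1005, 1815, 880 and 871 CPM in other neuroblast-like nuclei. In precursor-like nuclei it had 1656, 2565, 2881 and 3614 CPM in dividing and 2542, 2706, 2698 and 2442 CPM in other nuclei. The difference of its division effect between clusters did not pass edgeR's test (adjusted p = 0.23). Tnr and Lhfpl3 stood at -1.04 ± 0.38 and -0.98 ± 0.39 without passing. Over the alternatives with all libraries, 1 to 6 precursor markers were lower, and the list's median was -1.38 to -0.23.

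Of 11 adhesion and migration genes of immature neurons 5 were lower and 0 higher. Erbb4, the neuregulin receptor, stood at -1.37 ± 0.36, and had 1956, 1646, 2310 and 105 CPM in dividing neuroblast-like nuclei of anaesthetised methanol, post-mortem methanol, anaesthetised unfixed and post-mortem unfixed, against 5754, 3109, 4451 and 2877 CPM in other neuroblast-like nuclei. With DESeq2 its adjusted p was 0.059. The slit receptors Robo1 and Robo2 were at -1.55 ± 0.37 and -1.44 ± 0.37 and the ephrin receptor Epha5 at -1.66 ± 0.36. Ncam1 stood at -0.28 ± 0.34. Of 12 mature neuron genes 8 were lower and 0 higher, such as Syt1, a synaptic calcium sensor (-1.70 ± 0.37), and Snap25, a fusion protein (-1.67 ± 0.36). The list's sum was 1646 to 5864 CPM in dividing and 6010 to 10405 CPM in other neuroblast-like nuclei. With DESeq2, 6 of the 12 were lower. In the precursor-like cluster the sum was 3220 to 10031 CPM in dividing and 7406 to 9259 CPM in other nuclei. These genes were thus present in glial precursors too, and the part of free RNA or of doublets in them was not tested.

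Among the genes that were lowest, Lgr5, an R-spondin receptor of the Wnt pathway, was at -5.28 ± 0.82, with 13.6 CPM in anaesthetised methanol and 0 in the other 3 dividing neuroblast-like sums, against 78.1 to 599 CPM in other neuroblast-like nuclei. Cpne4, a calcium-binding copine, was at -4.05 ± 0.52. Adamts19 and Cpa6, both secreted enzymes, had 0 UMIs in dividing nuclei and 170 and 194 in other nuclei, which makes them at least 3.78-fold and 4.31-fold lower.

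Among 10 genes of transit-amplifying progenitors, the dividing stage between stem cell and neuroblast, 7 were tested, 2 were higher and 0 lower. Egfr, the growth factor receptor of that stage, was higher by 1.80 ± 0.39 (adjusted p = 2.3e-04). It had 543, 878, 506 and 1676 CPM in dividing neuroblast-like nuclei of anaesthetised methanol, post-mortem methanol, anaesthetised unfixed and post-mortem unfixed, against 71.3, 96.6, 226 and 63.0 CPM in other neuroblast-like nuclei, with no overlap. In dividing precursor-like nuclei it had 9.46 CPM in anaesthetised methanol and 0 in the other 3 libraries. The difference of its division effect between clusters did not pass edgeR's test (adjusted p = 0.85). Over all 12143 genes that test called 1 gene with a larger effect in the neuroblast-like cluster (0.00824%) and 3 with a smaller one (0.0247%). Notch1 was higher by 1.33 ± 0.43, and lost the call without either anaesthetised library (adjusted p of 0.37 without the methanol and 0.18 without the unfixed one).

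**Figure D4:**
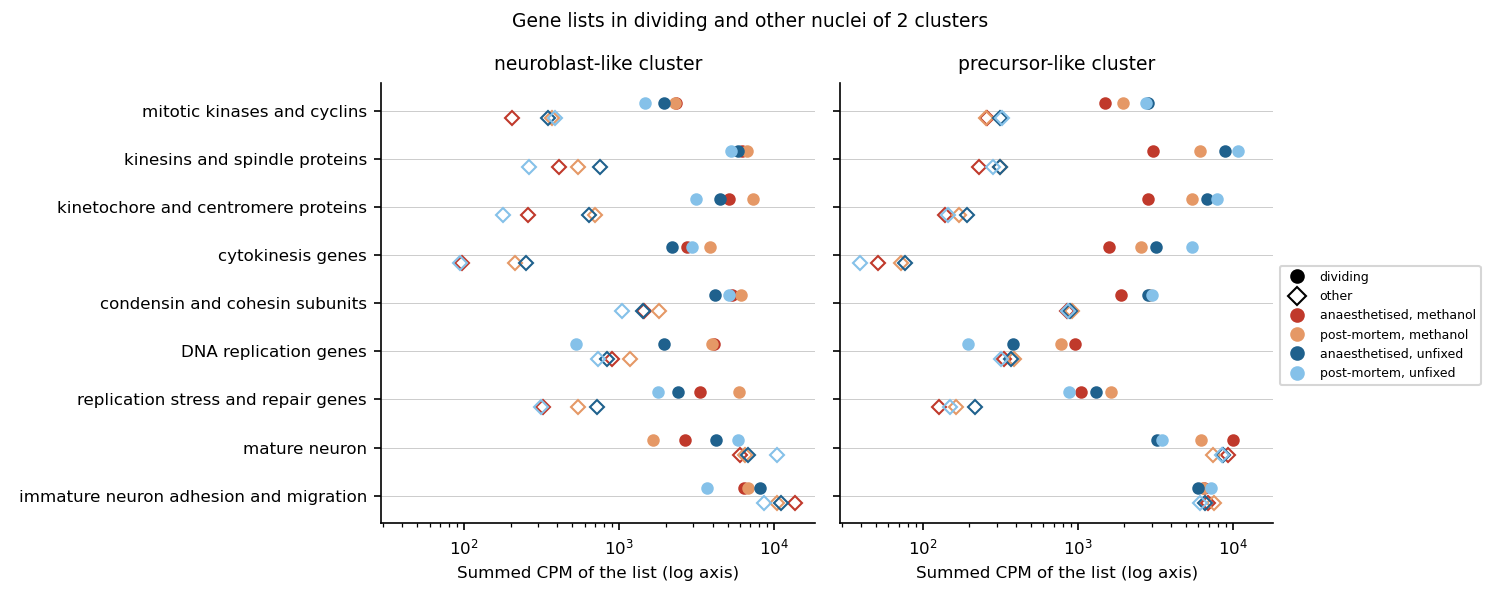
Summed CPM of 9 gene lists in dividing (filled) and other nuclei (open) of each cluster, on a log axis, 1 point a library. The 4 mitotic lists and the repair list are separate in both clusters, while replication overlaps and neuron lists are lower in dividing neuroblast-like nuclei.

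In each library the level of replication RNA was higher in dividing neuroblast-like than in dividing precursor-like nuclei, in a design too small to pass 0.05. The sum of the 36 replication genes was 4062 CPM (95% Poisson interval 3614 to 4549) in anaesthetised methanol, 3950 (2767 to 5468) in post-mortem methanol, 1958 (1681 to 2268) in anaesthetised unfixed and 524 (170 to 1222) in post-mortem unfixed dividing neuroblast-like nuclei. In dividing precursor-like nuclei of those libraries it was 956, 777, 381 and 195 CPM, from 101, 20, 9 and 2 UMIs. It was higher in neuroblast-like nuclei in 4 of 4 libraries, by 2.05 ± 0.44 on the log2 scale (SD, n = 4). The post-mortem unfixed pair rests on 5 against 2 UMIs, and the interval of its neuroblast-like value covers the precursor-like one. The exact 2-sided permutation p was 0.125, the smallest that 4 pairs allow. Other neuroblast-like nuclei also held more, 735 to 1178 CPM, than other precursor-like nuclei with 321 to 389 CPM.

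The sum of the 72 mitotic genes showed no such order. It was 15826, 19530, 14081 and 12253 CPM in dividing neuroblast-like nuclei of anaesthetised methanol, post-mortem methanol, anaesthetised unfixed and post-mortem unfixed, and 8772, 15507, 21266 and 26275 CPM in dividing precursor-like nuclei. It was higher in neuroblast-like nuclei in 2 of 4 libraries, with a mean log2 difference of -0.13 ± 0.88 (SD, n = 4; exact permutation p = 0.875). In all 141 dividing nuclei the mitotic genes had more UMIs than the replication genes, and the rule itself selects late-cycle genes. The mitotic lists are also longer, at 72 against 36 genes. Of all 50454 other nuclei, 35072 had more mitotic and 5944 more replication UMIs. Among 698 other neuroblast-like nuclei, 310 had more mitotic UMIs, 186 had more replication UMIs and 202 had as many of each.

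**Figure D5:**
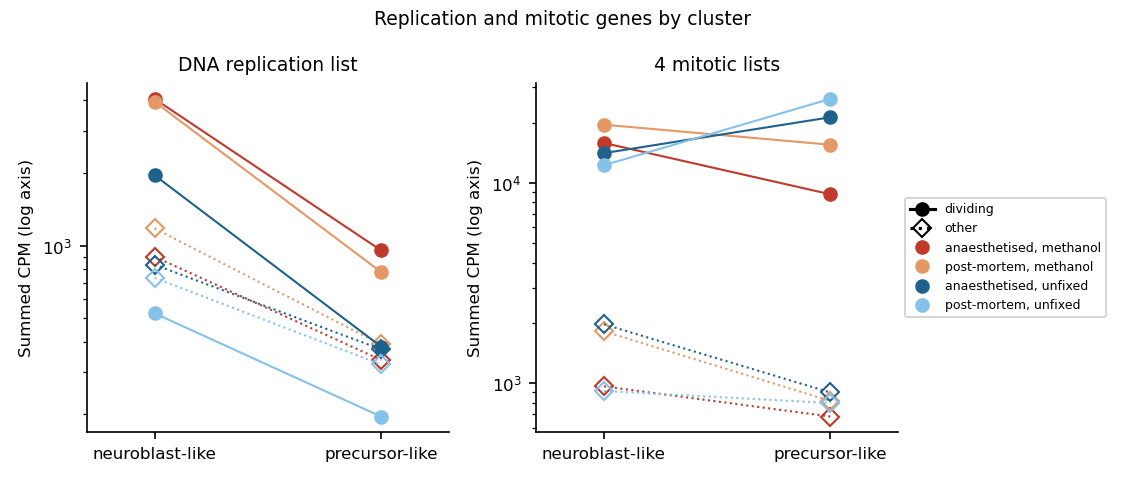
Summed CPM (log axis) of the DNA replication list (left) and of the 4 mitotic lists (right) in dividing (filled) and other (open) nuclei; lines join the 2 clusters of a library. Every replication line falls towards the precursor-like cluster, and the dividing mitotic lines cross.

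Fixation and harvest were compared within the dividing nuclei as ratios of summed CPM, with no test. Past a 2-fold difference in both harvests, 14 of 3959 genes (0.354%) stood higher in methanol than in unfixed nuclei, and 139 (3.51%) stood lower. Under anaesthesia against post-mortem, 181 were higher (4.57%) and 24 lower (0.606%) in both fixations. Barcodes over 20000 UMIs held 64.3% of the dividing UMIs in anaesthetised methanol, 98.3% in post-mortem methanol, 0 in anaesthetised unfixed and 88.9% in post-mortem unfixed, so these counts move with depth. In the neuroblast-like and precursor-like clusters alone, chosen after seeing the data, 2593 genes gave 49 higher (1.89%) and 55 lower (2.12%) for fixation, and 75 higher (2.89%) and 55 lower (2.12%) for harvest.

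Nusap1, a spindle protein, had the largest difference among genes lower in methanol over all dividing nuclei, at 94.4 against 511 CPM under anaesthesia and 6.54 against 89.5 CPM post-mortem. Within dividing neuroblast-like nuclei it had 367 CPM in methanol and 528 CPM in unfixed nuclei under anaesthesia, and 329 CPM in methanol and 524 CPM in unfixed nuclei post-mortem. Within dividing precursor-like nuclei it had 94.6 CPM in methanol and 551 CPM in unfixed nuclei under anaesthesia, and 194 CPM in methanol and 781 CPM in unfixed nuclei post-mortem. Ndst4, a heparan sulfate enzyme, had the largest among those higher, at 261 against 32.8 CPM under anaesthesia and 48.3 against 13.4 CPM post-mortem. The post-mortem pair rests on 133 UMIs in methanol and 3 UMIs in unfixed nuclei, and dividing nuclei of both named clusters held 0 UMIs of it in either post-mortem library. The replication list was higher in methanol than in unfixed dividing neuroblast-like nuclei of both harvests, with the levels given above. In other neuroblast-like nuclei it was 899 CPM in methanol and 833 CPM in unfixed under anaesthesia, and 1178 CPM in methanol and 735 CPM in unfixed post-mortem.

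For harvest, Igfbpl1, a neuroblast marker, stood at 171 CPM under anaesthesia and 3.27 CPM post-mortem among methanol-fixed dividing nuclei, and at 315 and 8.95 CPM among unfixed ones. This moved with the share of neuroblast-like nuclei given above. Within the dividing neuroblast-like nuclei Igfbpl1 was 910 CPM under anaesthesia and 219 CPM (2 UMIs) post-mortem in methanol, and 440 and 0 CPM in unfixed. Those post-mortem sums held only 9114 UMIs in methanol and 9549 in unfixed over all genes. Dlx1, a transcription factor of these cells, stood at 100.5 CPM under anaesthesia and 4.00 CPM post-mortem in methanol, and at 387 and 35.8 CPM in unfixed nuclei. Within the dividing neuroblast-like nuclei Dlx1 was 543 CPM under anaesthesia and 110 CPM (1 UMI) post-mortem in methanol, and 616 and 419 CPM in unfixed. Cd74, an antigen-presentation chaperone of immune cells, had 0 UMIs in both anaesthetised sets. Post-mortem dividing nuclei held 8 UMIs (2.91 CPM) in methanol and 60 UMIs (268 CPM) in unfixed. The methanol-fixed dividing sums held 497717 UMIs over all genes under anaesthesia and 2750836 post-mortem. The interval of the anaesthetised over post-mortem log2 ratio reached up to 1.70 in methanol, so that pair shows no difference beyond counting error. In unfixed nuclei the interval reached up to -3.43.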

How the data were processed

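The authors deposited UMI counts per gene and droplet barcode, as filtered matrices of 4 libraries, on build mm10 (per the submitters' processing notes). Which aligner, annotation release and strand setting they used is not given in the sources used here, so overlapping and antisense genes cannot be told apart. Barcodes with at least 500 UMIs, 300 genes and at most 5% mitochondrial UMIs were kept, 50595 in all. Deposited UMIs were 64312917 to 82408017 a library. Counting precision is given as 95% intervals (Clopper-Pearson for shares, exact Poisson for CPM), which cover counting error only.

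Nuclei were clustered with scanpy 1.11.5 and leidenalg 0.10.2 without the cell cycle lists, and a cluster was named only from marker lists. Doublets were called with Scrublet and kept, with results also computed without them. Library pairs shared 61 to 209 barcodes. Counts were summed per library and tested with edgeR 4.0.16 (quasi-likelihood, TMM, library as a block, Benjamini-Hochberg adjustment, genes with at least 30 UMIs within clusters), with DESeq2 1.42.0 as an alternative, in R 4.3.3. Figures were drawn with matplotlib 3.10.9 under Python 3.11.15. The tests were tried on simulated data. The first comparison recovered 22.4% of log2 changes of 1 and 51.5% of those of 2. The comparison within clusters recovered 8.08% and 46.0%, and each made 6 false calls. A gene that did not pass may thus still differ.

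The members and gene lists were chosen with earlier results of these data known. Dividing and other nuclei of 1 library share that library, and nothing gives separate animals within it, so p-values do not measure a spread between animals. They rest on a spread that edgeR pooled over genes, from 4 pairs of sums in the first comparison and 8 in the second. Very small p-values are thus no measure of how a gene varied between the 4 libraries. The pairs come from the same library by construction. Planned tests inside each cluster alone needed 10 dividing nuclei in at least 3 libraries, which neither cluster had, and were not run; the joint test of both clusters was added. Genes were named by a rule: the 6 rule genes, the 12 largest called changes per direction with a mean of at least 50 CPM in the higher group, up to 6 members per list by CPM in dividing nuclei, members called against their list, class markers, and the largest fixation and harvest differences.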

Additional observations from a re-analysis of the deposited data

Results flagged for a closer look

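In 4 genes the difference between dividing and other nuclei itself differed between the neuroblast-like and precursor-like clusters, by an interaction term in edgeR's quasi-likelihood test with Benjamini-Hochberg adjustment. At an unadjusted p under 0.05 there were 686 of 12143 genes, and after adjustment 1 was higher in the neuroblast-like cluster (0.00824%) and 3 lower (0.0247%). Ndst4, a heparan sulfate sulfotransferase, had a difference of 10.46 on the log2 scale (adjusted p = 1.7e-05). It rested on 1 library: dividing neuroblast-like nuclei had 367 CPM (27 UMIs) in anaesthetised methanol, 44.0 CPM in anaesthetised unfixed and 0 in both post-mortem libraries. In the anaesthetised methanol sum of 73612 UMIs, 1 barcode called a doublet held 19828. Whether the Ndst4 UMIs came from that barcode was not tested. Dividing precursor-like nuclei had 0 UMIs in all 4 libraries, against at most 187 CPM in other precursor-like nuclei.

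Ect2, which starts the contractile ring of cytokinesis, had a difference of -3.97 (adjusted p = 0.0105). It had 272 CPM in anaesthetised methanol, 439 in post-mortem methanol, 319 in anaesthetised unfixed and 0 in post-mortem unfixed dividing neuroblast-like nuclei. Dividing precursor-like nuclei had 246, 544, 466 and 1270 CPM in those libraries. Other nuclei had 6.90 to 57.9 CPM in the neuroblast-like and 0 to 4.09 CPM in the precursor-like cluster. Lockd had a difference of -3.62 (adjusted p = 0.032) and was higher in dividing than in other nuclei of both clusters in 8 of 8 pairs. In those libraries it had 489, 768, 616 and 1047 CPM in dividing neuroblast-like and 104, 350, 593 and 684 CPM in dividing precursor-like nuclei. Other nuclei had 0 to 73.2 CPM of Lockd in the neuroblast-like and 0 to 4.09 CPM in the precursor-like cluster. Frmd7, a protein of growing neurites, had a difference of -5.32 (adjusted p = 0.0343) that rested on few UMIs. Dividing neuroblast-like nuclei held 2 UMIs in anaesthetised unfixed and 0 in the rest, against 49.9 to 328 CPM in other neuroblast-like sums. Dividing precursor-like nuclei held 0, 2, 3 and 2 UMIs (0, 77.7, 127 and 195 CPM) in anaesthetised methanol, post-mortem methanol, anaesthetised unfixed and post-mortem unfixed.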

How the results depend on the processing

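Among alternatives for the shares and counts, 103 values stayed within their bounds and 45 moved. The balance of higher and lower counts turned in some: lower genes outnumbered higher ones in the comparison with all other nuclei without deep barcodes and for harvest without doublet calls, and higher ones outnumbered lower ones within clusters with DESeq2 (297 and 280). The dividing share was 0.340% in anaesthetised methanol and 0.0928% in anaesthetised unfixed nuclei at 2000 UMIs, 0.269% (sum of at least 6 UMIs) and 0.241% (at least 4 genes) in anaesthetised unfixed, and 0.0481% in post-mortem unfixed nuclei without doublet calls. The anaesthetised over post-mortem ratio in unfixed nuclei was 7.29 without doublet calls and 1.36 when thinned, and the methanol over unfixed ratio under anaesthesia 3.67 when thinned. For dividing against other nuclei, 330 higher and 23 lower genes became 132 and 0 without the replicate block (801 lower at an unadjusted p under 0.05), 1009 and 1875 without barcodes over 20000 UMIs, and 204 to 594 and 11 to 379 with 1 library left out. Lower genes were 15 with size factors, 0 with DESeq2 (286 at an unadjusted p under 0.05) and 383 without doublet calls. Within the 2 clusters the fit without the block gave 306 higher and 696 lower. There, lower genes were 398 with size factors, 280 with DESeq2 and 1088 without doublet calls, and leaving out 1 library gave 153 to 269 higher and 275 to 532 lower. The causes were not tested.

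For fixation, 14 higher and 139 lower genes became 32 and 90 with size factors, 7 and 51 at a mean of 100 CPM, 164 and 280 without doublet calls, 41 and 51 without barcodes over 20000 UMIs, and 49 and 55 in the 2 clusters. For harvest, 181 higher and 24 lower became 91 and 8 at a mean of 100 CPM, 86 and 54 without the deep barcodes, 75 and 55 in the 2 clusters, and 153 and 179 without doublet calls. Tests inside each cluster alone were not run. With 3 dividing nuclei of each named cluster in the post-mortem unfixed library, depth there limits every value.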

Other observations

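The 35 dividing nuclei outside the 2 named clusters were spread over 13 clusters. The largest number, 15, lay in a cluster with oligodendrocyte markers in which Scrublet called 93.2% of nuclei, and 13 of these 15 were called. Another 8 lay in 3 clusters with microglia markers, of which 2 were called.

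Eif2s3y, a Y-linked translation factor, was found in both post-mortem libraries and hardly in the anaesthetised ones. It had a UMI in 0.549% of anaesthetised methanol and 45.0% of post-mortem methanol nuclei, and in 0.235% of anaesthetised unfixed and 27.1% of post-mortem unfixed nuclei. Dividing nuclei held 0 and 417 UMIs in the methanol pair, and 0 and 18 UMIs in the unfixed pair. Uty, also Y-linked, had a UMI in 42.6% of anaesthetised methanol and 54.3% of post-mortem methanol nuclei, and in 22.2% and 37.9% of the unfixed ones. Xist was found in 0.706 to 2.51% of nuclei of the 4 libraries.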
